A study of Mus musculus with 8 samples.

Results

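Proteasome genes were examined in SV-LECs, a mouse lymphatic endothelial cell line derived from mesenteric adventitial tissue and immortalized with SV40. The members are the rows of the count table whose symbol is Psm, a letter from a to g and a number, without the immunoproteasome subunits Psmb8, Psmb9 and Psmb10, which gave 45 of the 55471 genes in the table. One member, Psme2, shares its row with a second symbol and was kept. The groups were untreated cells and cells given 10 ng/ml TGFβ1 during 72 h, with 4 libraries in each. Both groups were the same immortalized line grown in DMEM with serum, and the paper describes the samples as technical replicates. Errors and p-values therefore cover variation between libraries and not between independent experiments.

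The proteasome is the large protease that degrades proteins tagged with ubiquitin. Its barrel-shaped core particle is a stack of outer alpha rings and inner beta rings, and the cutting sites lie on the inner face of the beta rings. A regulatory particle caps the barrel: its base holds a ring of ATPases that unfold the substrate and push it into the core, and its lid removes the ubiquitin chain. Dedicated chaperones assemble both particles, and other activators can cap the core in place of the regulatory particle. Rapidly dividing and secretory cells are known to depend strongly on proteasome activity, and many proteasome genes are controlled by the transcription factor encoded by Nfe2l1.

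Total counts were between 18952504 and 26386941 per library. Values are in CPM, the counts of a gene scaled to the size of its library after normalization by the TMM method. Of the 45 members, 43 passed the filter on low counts, and these had between 137 and 10885 counts in every library, so none of them passed through 1 group alone. The remaining 2 are tissue-restricted core subunits. Psma8, known from the testis, had 0 counts in all libraries, where 3 counts would correspond to 0.113 to 0.162 CPM, and Psmb11, known from the thymus, had 0 to 2. Among markers of the labelled cell type, Eng, Kdr, Tek, Flt4 and Pdpn passed the filter, Tek with only 8 to 18 counts per library, and Pecam1 had 1 to 5 counts. The 6 endothelial markers summed to 70.2 to 78.2 CPM in untreated and 162 to 170 CPM in treated libraries, and the 6 lymphatic markers to 344 to 381 and 337 to 348 CPM. Eng, Kdr and Flt4 were higher after TGFβ1 (log2 fold changes 1.21, 0.93 and 0.44), Tek was not called (-0.16), and Pdpn, which made up most of the lymphatic sum, was lower (-0.13). Cdh5, Tie1, Prox1, Lyve1, Reln and Ccl21a had at most 3 counts in every library, so the table does not show these defining endothelial and lymphatic genes. Of the other cell type lists, the 4 epithelial markers summed to 0.304 to 1.14 CPM in untreated and to 2.36 to 4.11 CPM in treated libraries. The 4 leukocyte markers summed to 5.83 to 7.82 CPM and then to 14.9 to 17 CPM, nearly all of it Cd68, with Ptprc, Itgam and Cd3e at no more than 3 counts. The 4 fibroblast and mural markers summed to 494 to 539 CPM and then to 200 to 227 CPM. Of these, Dcn and Pdgfra were lower (log2 fold changes -1.91 and -1.47), Pdgfrb was higher (0.63), and Rgs5 had at most 7 counts. The part of any of these in the proteasome values was not tested.

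Single proteasome genes shifted by small amounts in both directions after TGFβ1. Of the 43 members tested, 10 were significantly higher and 17 significantly lower at an FDR under 0.05 (edgeR's likelihood ratio test, with adjustment over all genes tested). These 27 members are 62.8% of those tested, against 75.6% of all genes, and by direction they are 23.3% higher and 39.5% lower, against 37.6% and 38% of all genes. The members' changes were small. In 34 of the 43, or 79.1%, the fitted change was less than 1.2-fold, against 35.9% of all genes tested. The median log2 fold change of the members was -0.05, with quartiles of -0.20 and 0.10. Over all genes it was -0.01, with quartiles of -0.36 and 0.42. The members' median was between -0.076 (without untreated replicate 1) and -0.032 (without untreated replicate 3) when 1 library was left out.

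The split between higher and lower members depended on how libraries were scaled. With total counts alone, which moved the median of all genes by -0.07 on the log2 scale, 7 members were higher and 25 lower. When the change itself was tested against 1.2-fold with edgeR's glmTreat, 1 member was higher and 5 were lower. That is 2.33% and 11.6% of the members, against 25.9% and 23.8% of all genes. The member above was Psme4, and those below were Psma1, Psmc6, Psmd14, Psmg3 and Psmg4. The libraries of the groups did not overlap in 26 members, or 60.5%, against 69.8% of all genes. Out of all 43 members tested, 11 lay wholly higher and 15 wholly lower after TGFβ1, where 34.7% and 35.1% of all genes tested did. Counts from bulk cultures cannot tell fewer cells of one kind from less RNA per cell.

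**Figure D1:**
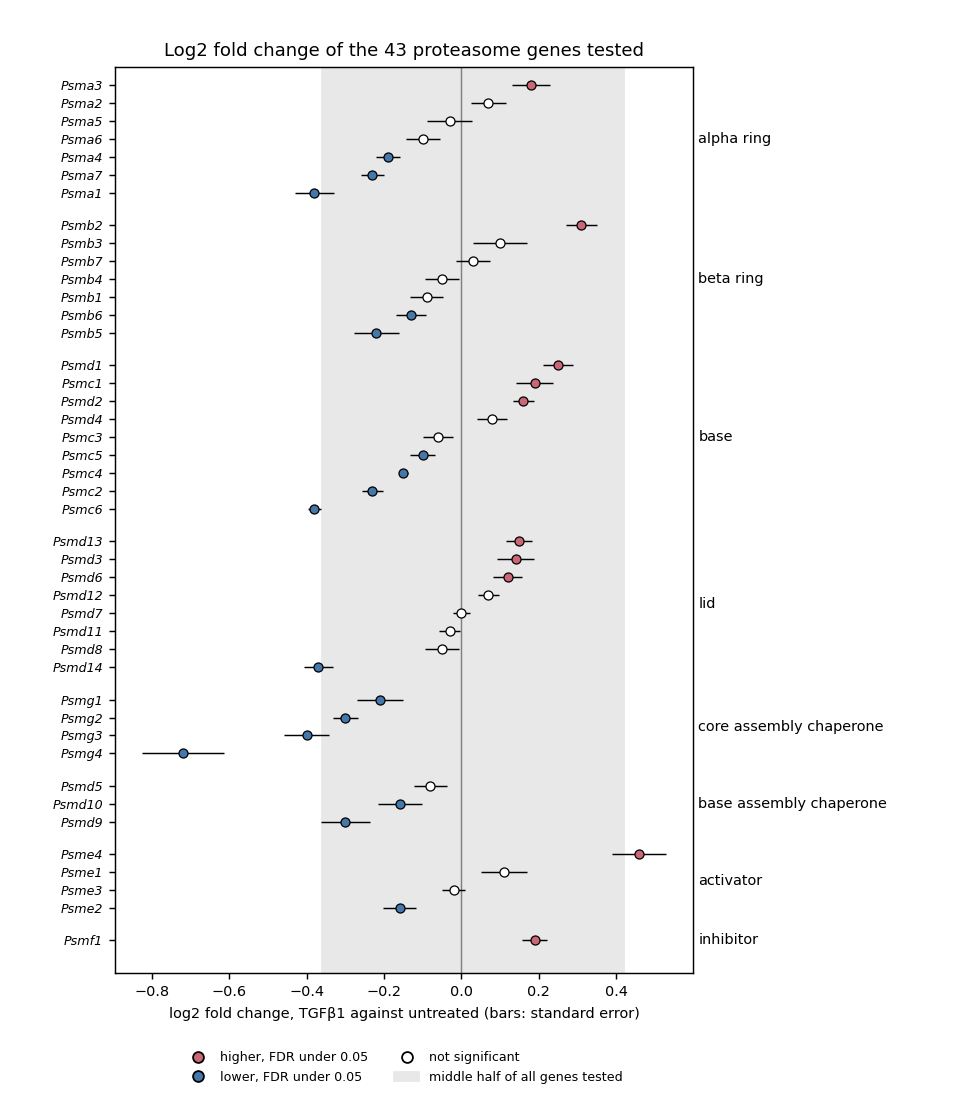
Log2 fold change of each tested proteasome gene, TGFβ1 against untreated, from edgeR (points), with the standard error of the difference in mean log2 CPM (bars, n = 4 libraries per group), grouped by role. The grey band lies between the quartiles of all genes tested, -0.36 and 0.42, and only Psma1, Psmc6, Psmd14, Psmg3, Psmg4 and Psme4 lie outside it.

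In the alpha ring, which gates entry to the core, 1 of 7 subunits was higher, 3 were lower and 3 did not pass the test, with a median log2 fold change of -0.10. The share called was 57.1%, against 75.6% of all genes tested. The largest fall was that of Psma1 (ENSMUSG00000030751, chromosome 7 of GRCm38, 114264606 to 114276118). It was at 122, 125, 140 and 129 CPM in the untreated libraries and at 102, 103, 96.5 and 95.9 CPM in the treated ones. Every treated library lay below every untreated library, and the log2 fold change was -0.38 (standard error 0.0515, edgeR FDR = 1.9e-12). Standard errors here and throughout are those of the difference between group means of log2 CPM, with n = 4 libraries per group. Psma7 and Psma4 also fell, with log2 fold changes of -0.23 and -0.19. The only rise was in Psma3 (chromosome 12, 70974621 to 70996347), which was at 73.5, 74.8, 81.3 and 78.1 CPM without and at 82.7, 90.1, 91.6 and 84.6 CPM with TGFβ1. Its groups did not overlap, although the step between them was narrow (log2 fold change 0.18, standard error 0.0482, edgeR FDR = 0.000785). Psma2, Psma5 and Psma6 had log2 fold changes of 0.07, -0.03 and -0.10 and overlapped between groups. Psma6 was near the threshold, with an FDR of 0.0532 from the likelihood ratio test and 0.0447 from edgeR's quasi-likelihood test. It was called lower without untreated replicate 1 (FDR = 0.0102) or 2 (FDR = 0.0388) or TGFβ1 replicate 2 (FDR = 0.0484).

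The beta ring, with its catalytic subunits, had 1 higher, 2 lower and 4 uncalled members of 7 and a median log2 fold change of -0.05. Here 42.9% were called, against 75.6% of all genes tested. Psmb2, a non-catalytic subunit (chromosome 4, 126677630 to 126709714), was at 107, 113, 118 and 112 CPM in untreated and at 142, 143, 132 and 140 CPM in treated libraries. All treated libraries were above all untreated ones, and the log2 fold change was 0.31 (standard error 0.0401, edgeR FDR = 5.41e-11). It had the highest log2 fold change of the core subunits tested.

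The catalytic subunits differed little between groups. Psmb5, which carries the chymotrypsin-like site (chromosome 14, 54614119 to 54618022), was at 16.9, 16.2, 15.5 and 15.8 CPM in untreated and at 13, 12.9, 14.1 and 15.1 CPM in treated libraries. The groups were separate but close, and the fall was by 0.22 on the log2 scale (standard error 0.0586, edgeR FDR = 0.00745). The level of Psmb5 is uncertain: 36.8% of its stretches of read length occur in other genes on the same strand. One of these genes, Gm3375, was counted at 16.3 CPM in untreated cells. Counted together with Gm3375, Psmb5 went from 32.4 ± 1.27 to 28.5 ± 1.3 CPM (SD, n = 4), a log2 ratio of -0.19. Psmb6, with the caspase-like site (chromosome 11, 70525367 to 70527858), was at 141, 153, 148 and 142 CPM without and at 128, 134, 140 and 134 CPM with TGFβ1. Each treated library was below each untreated one, with a log2 fold change of -0.13 and a standard error of 0.0383 (edgeR FDR = 0.00825). Psmb7, with the trypsin-like site, was at 108, 111, 119 and 120 CPM and then at 112, 119, 117 and 117 CPM. These ranges overlapped, and no difference was detected (log2 fold change 0.03, standard error 0.0428, edgeR FDR = 0.623).

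Psmb1, a non-catalytic subunit, was at 205, 214, 226 and 228 CPM in untreated and at 195, 209, 205 and 208 CPM in treated libraries. The groups overlapped, and the difference missed the threshold (log2 fold change -0.09, edgeR FDR = 0.0529) although it passed with the quasi-likelihood test (FDR = 0.0441) and without untreated replicate 1 (FDR = 0.00845) or TGFβ1 replicate 2 (FDR = 0.0488). Psmb3 and Psmb4 had log2 fold changes of 0.10 and -0.05 and were not called, although Psmb3 was called higher without untreated replicate 4 (edgeR FDR = 0.0387).

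**Figure D2:**
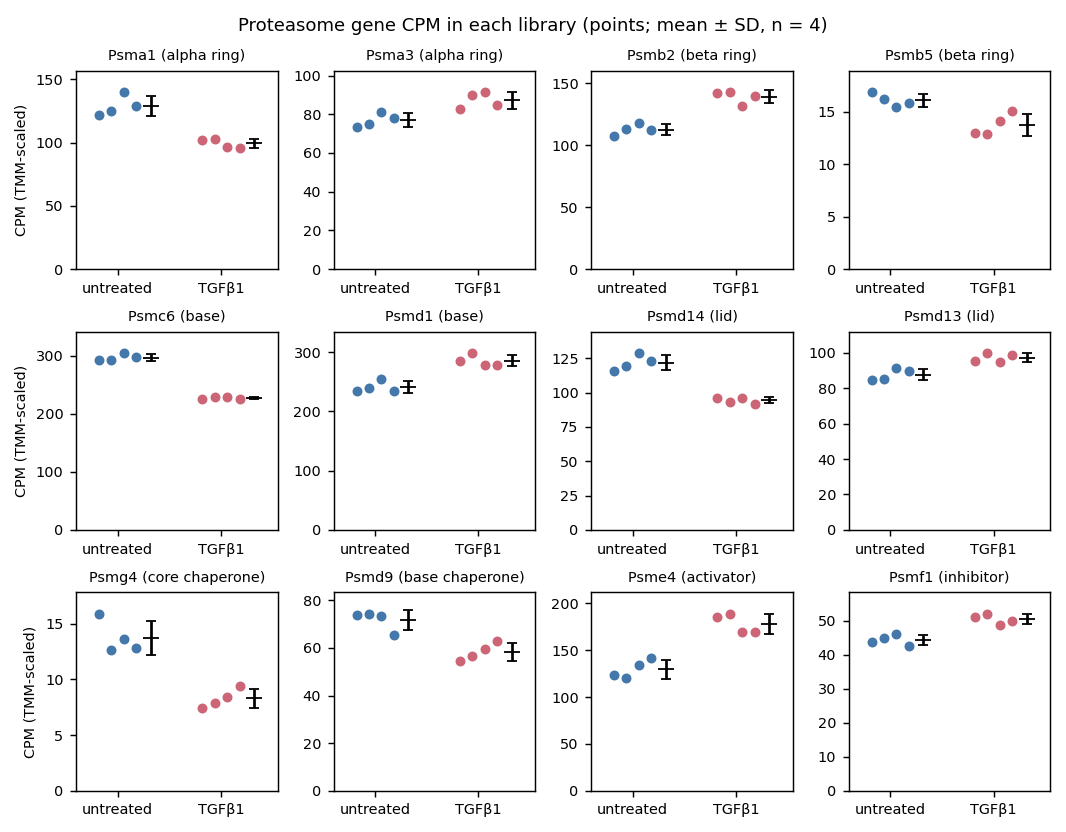
TMM-scaled CPM of 12 proteasome genes in each library (points; vertical axes start at 0), with the mean and SD of 4 libraries per group beside them. Psma1, Psmb5, Psmc6, Psmd14, Psmg4 and Psmd9 were lower and the other 6 genes higher after TGFβ1, and in each panel the groups do not overlap.

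Regulators of proteasome genes were also measured. Nfe2l1, whose product activates proteasome genes when proteasome activity is short, was at 776, 817, 782 and 722 CPM in untreated and at 539, 538, 539 and 526 CPM in treated libraries. The groups were far apart, with a fall by 0.53 on the log2 scale (standard error 0.0382, edgeR FDR = 2.59e-33). Ngly1, a glycanase that acts on the Nfe2l1 product, and Nfe2l2, a related factor of the oxidative stress response, fell by 0.29 and 0.32 on the log2 scale. Ddi2, the protease that cuts the Nfe2l1 product, was at 65.8 ± 0.696 CPM in untreated and 93.3 ± 2.15 CPM in treated cells (SD, n = 4) and rose by 0.50. on the log2 scale

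Factors of this family are known to bind antioxidant response elements, so the element's core, TGACNNNGC, was searched on both strands in the 250 bases before each start site in RefSeq's GRCm38.p6 promoters. Of 37 members with an entry, 5 held it, or 13.5%, against 11.5% of all 27025 genes. These were Psmb5, Psmb6, Psmc6, Psmd9 and Psmd12. Their log2 fold changes were -0.22, -0.13, -0.38, -0.30 and 0.07, and all but that of Psmd12 passed the test, where 75.6% of all genes did. For the 3 members with the element within 50 bases of the start site, the 60 bases that end with it are shown, from 5′ to 3′ along the gene and with the matching letters in capitals. They lie at chr14:54618034-54618093 on the minus strand for Psmb5, at chr11:70525297-70525356 on the plus strand for Psmb6 and at chr5:123228108-123228167 on the plus strand for Psmd9, where the site is within the span of the gene model, outside the exons of each gene in GENCODE M21.
Psmb5: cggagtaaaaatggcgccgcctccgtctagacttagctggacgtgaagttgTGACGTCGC
Psmb6: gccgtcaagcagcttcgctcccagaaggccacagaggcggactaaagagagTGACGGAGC
Psmd9: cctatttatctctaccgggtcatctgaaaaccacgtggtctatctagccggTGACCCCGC
The letters between the fixed ends differ in all of them. The element begins 47 bases before the start site in Psmb5, 9 in Psmb6 and 31 in Psmd9. The motif CCAAT was held by 13 of the 37 members, 35.1%, against 37.5% of all genes. Psma8, Psmb1, Psmb2, Psmb7, Psmc3, Psmd3, Psmd7 and Psmg2 were without an entry. A match is a description of these letters and not evidence of binding.

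The base of the regulatory particle had 3 higher, 4 lower and 2 uncalled members of 9, or 77.8% called, near the 75.6% of all genes tested. Of the 6 ATPase genes, Psmc2, Psmc4, Psmc5 and Psmc6 fell, Psmc1 rose and Psmc3 was not called. Psmc6 (ENSMUSG00000021832, chromosome 14, 45329788 to 45349705) was at 292, 292, 305 and 297 CPM in untreated and at 226, 228, 229 and 226 CPM in treated libraries. The libraries of each group were tightly together and the groups far apart, with a log2 fold change of -0.38 and a standard error of 0.0157 (edgeR FDR = 5.9e-25). No other member had an FDR as low. Psmc2 and Psmc4 fell by 0.23 and 0.15 on the log2 scale. The fall of Psmc5, by 0.10, had an FDR of 0.0324 from edgeR. It was not significant in 5 of the 8 fits without 1 library, those without TGFβ1 replicate 1, 2 or 3 or untreated replicate 3 or 4 (highest FDR 0.153), nor with a replicate block (FDR = 0.06).

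Psmc1 was at 136 ± 6.88 CPM in untreated and 154 ± 6.54 CPM in treated cells (SD, n = 4) and rose by 0.19 on the log2 scale (standard error 0.0478, edgeR FDR = 0.000234). Psmc3 was at 186, 191, 204 and 182 CPM and then at 183, 188, 182 and 178 CPM. Its groups overlapped, and no difference was detected (log2 fold change -0.06, standard error 0.0382, edgeR FDR = 0.182). Psmd1, a scaffold of the base (chromosome 1, 86064387 to 86139151), was at 234, 240, 255 and 234 CPM without and at 285, 299, 279 and 279 CPM with TGFβ1. The treated libraries were all higher, with a log2 fold change of 0.25 and a standard error of 0.0378 (edgeR FDR = 4.17e-08). The other scaffold, Psmd2, which docks ubiquitin-like shuttle proteins, was at 380 ± 13.3 CPM in untreated and 423 ± 6.57 CPM in treated cells, and rose by 0.16. on the log2 scale Psmd4, a ubiquitin receptor, was at 102, 104, 103 and 93.8 CPM and then at 106, 104, 105 and 110 CPM. Its treated libraries were all above the untreated ones by a slim margin, but it was not called (log2 fold change 0.08, edgeR FDR = 0.125).

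In the lid 3 of 8 members were higher, 1 was lower and 4 were not called, so 50% were called against 75.6% of all genes tested. Psmd14, the metalloprotease that cuts off the ubiquitin chain (ENSMUSG00000026914, chromosome 2, 61711694 to 61800376), was at 116, 119, 129 and 123 CPM in untreated and at 96, 93.2, 96.3 and 91.9 CPM in treated libraries. All treated libraries were below all untreated ones, with a log2 fold change of -0.37 and a standard error of 0.0369 (edgeR FDR = 1.01e-14). Its partner in the lid, Psmd7, was by contrast level, at 195, 197, 209 and 200 CPM without and at 199, 204, 200 and 199 CPM with TGFβ1. The log2 fold change of Psmd7 was 0.00 with a standard error of 0.0226. The scaffold subunits Psmd13, Psmd3 and Psmd6 rose. Psmd13 was at 84.7, 85.1, 91.4 and 89.7 CPM and then at 95.6, 100, 94.6 and 98.7 CPM. Its groups were separate, with a log2 fold change of 0.15 and a standard error of 0.0334 (edgeR FDR = 0.00162).

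The rises of Psmd3 and Psmd6 were by 0.14 and 0.12 on the log2 scale. With libraries scaled by total counts none of these 3 rises was significant (FDR = 0.0888 for Psmd13, 0.149 for Psmd3 and 0.267 for Psmd6 from edgeR), and that of Psmd6 was also lost without untreated replicate 4 (FDR = 0.0551). Without the filter on low counts the calls of Psmd3 and Psmd6 were lost as well. Psmd8 was at 187, 195, 209 and 188 CPM and then at 181, 187, 187 and 196 CPM, and Psmd12 at 137, 142, 146 and 147 CPM and then at 152, 146, 150 and 151 CPM. Both overlapped between groups, with log2 fold changes of -0.05 and 0.07, and Psmd11 had one of -0.03.

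Assembly chaperones, which leave the finished particle, included the member with the largest change. All 4 core assembly chaperones were significantly lower, where 38% of all genes tested were, with a median log2 fold change of -0.35. Against 1.2-fold, Psmg3 and Psmg4 passed glmTreat and Psmg1 and Psmg2 did not (FDR = 0.741 and 0.164). Psmg4 (ENSMUSG00000071451, chromosome 13, 34162964 to 34178173) was at 15.9, 12.6, 13.6 and 12.8 CPM in untreated and at 7.41, 7.89, 8.46 and 9.43 CPM in treated libraries. The groups did not overlap, and the log2 fold change was -0.72 (standard error 0.107, edgeR FDR = 5.36e-11), a level of 0.608 of that in untreated cells. Psmg3, its partner in a chaperone pair, fell by 0.40 on the log2 scale (standard error 0.0581, edgeR FDR = 1.9e-06).

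The other pair of core chaperones, Psmg1 and Psmg2, fell less. Psmg1 was at 21.4, 23.1, 21.9 and 20.1 CPM without and at 17.9, 19.2, 20.2 and 18 CPM with TGFβ1. One treated library lay just above the lowest untreated one, and the log2 fold change was -0.21 (standard error 0.0592, edgeR FDR = 0.00499). Psmg2 fell by 0.30. Pomp, a core maturation factor that is not among the members, went the other way, from 75.8 ± 4.1 to 89.1 ± 2.03 CPM (SD, n = 4), a log2 fold change of 0.23 (edgeR FDR = 4.72e-06).

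Of the 3 chaperones of the base, 2 were lower and none was higher, where 38% of all genes tested were lower. Psmd9 (chromosome 5, 123169413 to 123250131) was at 73.8, 74.4, 73.2 and 65.4 CPM in untreated and at 54.3, 56.8, 59.4 and 62.8 CPM in treated libraries. All treated libraries were lower, with a log2 fold change of -0.30 and a standard error of 0.0625 (edgeR FDR = 1.29e-06). Of its stretches of read length 24.3% lie on the opposite strand of another gene, and the sources do not state whether counting used strand. Psmd10, also known as gankyrin, fell by 0.16 (edgeR FDR = 0.0179). That call was lost in 4 of the 8 fits without 1 library, those without TGFβ1 replicate 1 or 3 or untreated replicate 3 or 4 (highest FDR 0.0772). Psmd5 was at 66.3, 64.9, 70.9 and 71.9 CPM and then at 64.6, 66, 62.3 and 66.6 CPM. Its groups overlapped and it was not called (log2 fold change -0.08, edgeR FDR = 0.162).

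The activators moved in different directions. Psme4, a large single-chain activator that caps the core without ATP or ubiquitin (ENSMUSG00000040850, chromosome 11, 30771726 to 30880361), had the largest rise of the members. It was at 123, 120, 134 and 142 CPM in untreated and at 185, 189, 169 and 169 CPM in treated libraries. All treated libraries lay above all untreated ones, with a log2 fold change of 0.46 and a standard error of 0.0703 (edgeR FDR = 8.32e-14). Psme3, the nuclear activator that forms rings of its own, was at 139, 141, 145 and 134 CPM and then at 136, 142, 133 and 138 CPM. These values overlapped throughout (log2 fold change -0.02, standard error 0.0294, edgeR FDR = 0.598).

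The interferon-inducible activator is built of Psme1 and Psme2 subunits, and these were apart. Psme1 was at 92.1, 99.4, 101 and 86.3 CPM without and at 98.3, 101, 108 and 102 CPM with TGFβ1. It overlapped between groups and was not called (log2 fold change 0.11, standard error 0.0593, edgeR FDR = 0.0669), but it was called higher without untreated replicate 2 (FDR = 0.0465) or 3 (FDR = 0.0278). Psme2 was at 81.3, 88.8, 92.7 and 84.9 CPM and then at 76.5, 80.2, 77.6 and 76.8 CPM. Its treated libraries were all lower, with a log2 fold change of -0.16 and a standard error of 0.0437 (edgeR FDR = 0.00213). Psme2 shares 22.9% of its stretches with the copy Psme2b, which was counted at 5.11 CPM in untreated and 2.97 CPM in treated cells. The 2 together fell from 92 ± 4.89 to 80.8 ± 1.41 CPM (SD, n = 4), a log2 ratio of -0.19.

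Psmf1, an inhibitor of the core in vitro (chromosome 2, 151715812 to 151744186), was at 43.7, 44.8, 46.2 and 42.6 CPM without and at 51.1, 52.1, 48.9 and 50 CPM with TGFβ1. Its groups were separate, with a log2 fold change of 0.19 and a standard error of 0.032 (edgeR FDR = 0.000322). For each member whose groups did not overlap, an exact two-sided permutation test gave p = 0.0286, the smallest that 4 libraries against 4 allow.

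The TMM-scaled sum over all tested members, with chaperones, activators and inhibitor included, was similar in both groups. The CPM of all 43 tested members summed to 5248, 5334, 5616 and 5369 in the untreated and to 5265, 5387, 5300 and 5313 in the treated libraries, and these ranges overlapped. The beta ring summed to 804 ± 22.6 and 805 ± 19.3 CPM (SD, n = 4 per group) and the lid to 1128 ± 30.2 and 1134 ± 9.94 CPM. The alpha ring went from 800 ± 36.6 to 738 ± 10.8 CPM. The ATPases went from 1180 ± 33.5 to 1056 ± 15.9 CPM, a ratio of 0.895, while the base as a whole had a ratio of 0.984. The core assembly chaperones went from 91.2 ± 2.92 to 71.5 ± 1.67 CPM, a ratio of 0.785, and the activators from 451 ± 15.4 to 495 ± 12.2 CPM, a ratio of 1.10. These sums weigh long and abundant RNAs most and were not tested. They also rest on the TMM factors, 1.022 to 1.029 in untreated and 0.9742 to 0.9793 in treated libraries. With total counts alone, that is without these factors, every treated sum was below every untreated one for all members, the base and the lid. The beta ring sums still overlapped, and the activator sums then overlapped as well. The similar total therefore holds only with TMM scaling. The members' median log2 fold change was -0.12 on that scale.

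**Figure D3:**
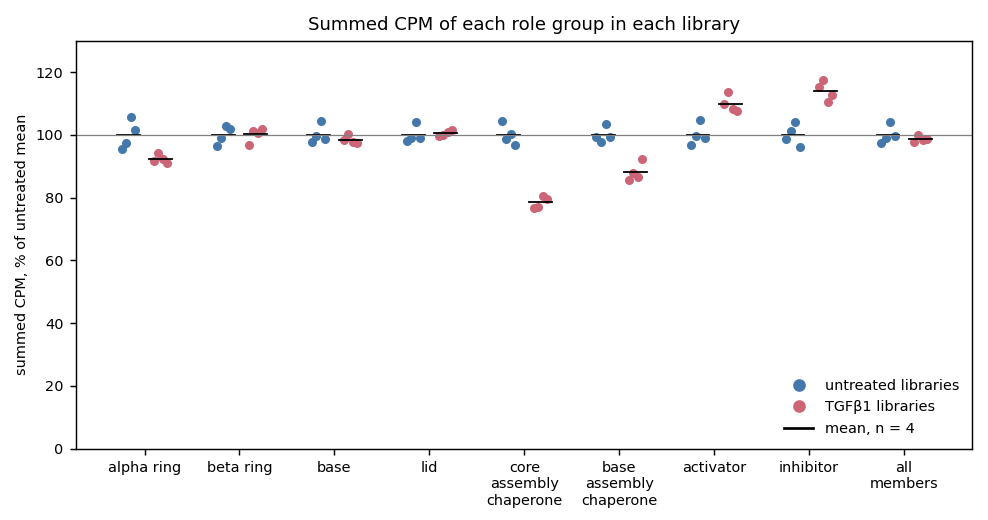
Summed TMM-scaled CPM of the tested genes of each role group in each library, as a percentage of the untreated mean of that group (points; black lines are means of 4 libraries; the axis starts at 0). The alpha ring and both chaperone groups lie below their untreated libraries, the activators and Psmf1 above, and the beta ring, base, lid and the total overlap.

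Levels between genes were compared as CPM per kilobase of exon, with the merged exons of GENCODE M21 as length. Subunits of one particle are present in equal numbers in the protein, but their RNA levels on this scale were not equal. In untreated cells the core subunits lay between 17.9 (Psmb5) and 104 (Psma6) CPM per kilobase and those of the regulatory particle between 18.3 (Psmd11) and 98.8 (Psmc5). After TGFβ1 the same bounds were 15.3 (Psmb5) to 116 (Psmb2), and 17.9 (Psmd11) to 105 (Psmd2). The level of Psmb5 is uncertain because of its shared stretches. The next lowest core subunit was Psma3, at 19.8 in untreated and 22.4 in treated cells. Medians were 45.5 and 40.2 for the core and 56.2 and 50.5 for the regulatory particle, untreated and treated. The assembly chaperones were lower, with a median of 16.1 CPM per kilobase in untreated cells and 14 in treated cells. Psmg3 was the lowest tested member at 5.48 and 4.14. Merged exons include isoforms that these cells may not use. On shared sequence, 5 tested members, Psma3, Psma5, Psmb3, Psmb5 and Psme2, share at least 10% of their stretches with other genes on the same strand, and 28 share none. The 9 other copies of Psma3, Psma5 and Psmb3 had at most 47 counts in a library.

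**Figure D4:**
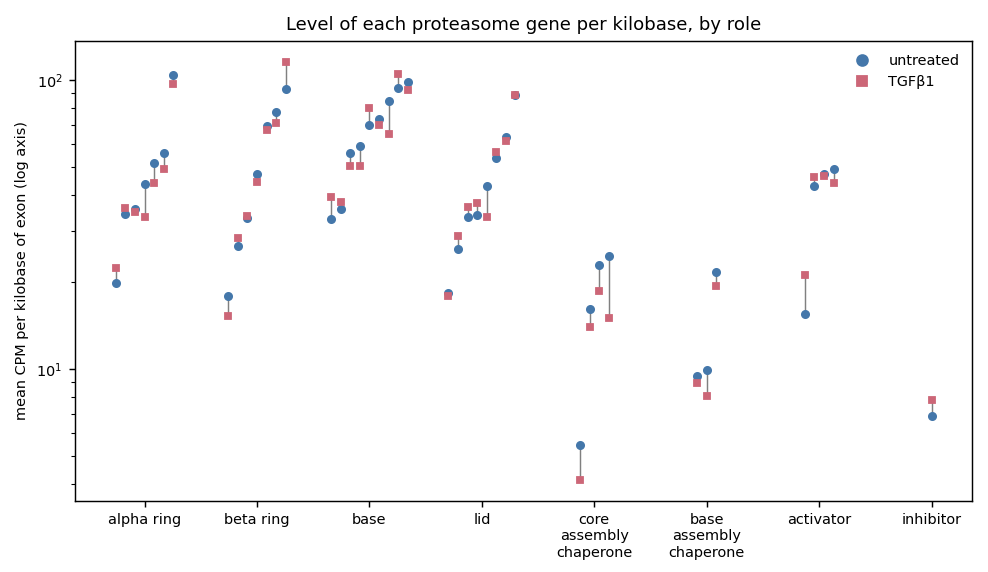
Mean CPM per kilobase of exon of each tested proteasome gene (log axis; circles untreated, squares TGFβ1, n = 4 libraries each), grouped by role. Core and regulatory subunits spread from 15.3 (Psmb5, of uncertain level) to 116, and the shift of each gene between groups, drawn as a line, is small beside that spread.

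A list of genes that work with the proteasome was examined beside the members. It includes the immunoproteasome subunits, which the member rule leaves out. Of 23 such genes 8 were significantly higher and 13 significantly lower, which is 91.3% of them against 75.6% of all genes tested. In 47.8% the change was less than 1.2-fold, compared with 79.1% of the members and 35.9% of all genes. By direction, 34.8% were higher and 56.5% lower, against 37.6% and 38% of all genes. No test of the difference between these lists was made. Among genes associated with the particle, Uchl5, a deubiquitinase, fell from 55 ± 2.08 to 39.4 ± 2.1 CPM (SD, n = 4), a log2 fold change of -0.49. Adrm1, its docking site and a ubiquitin receptor, rose by 0.24 on the same scale. Akirin2, which carries proteasomes into the nucleus, fell by 0.52, and Ecpas, a clamp between core and regulatory particle, by 0.41. Usp14, Ube3c and Sem1 fell by 0.15, 0.15 and 0.17. Adrm1 and Sem1 do not match the symbol rule, so the base and lid counts and sums above leave them out.

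Among the shuttles that bring substrates, Ubqln1 fell by 0.21, whereas Ubqln2 and Ubqln4 were not called. Rad23b had a log2 fold change of -0.11, which was not significant without untreated replicate 3 (edgeR FDR = 0.0641) or TGFβ1 replicate 2 (FDR = 0.0514). Vcp, the unfolding ATPase, had one of 0.13, not significant with total counts (edgeR FDR = 0.138) or without the filter on low counts (FDR = 0.0603). Of the genes that encode ubiquitin, Ubb went from 285 ± 6.14 to 222 ± 3.28 CPM and Rps27a from 322 ± 19.4 to 231 ± 5.87 CPM, log2 fold changes of -0.36 and -0.48. Uba1, the ubiquitin-activating enzyme, rose by 0.16.

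The 3 immunoproteasome subunits, which replace the catalytic subunits in cells exposed to interferon, were all higher, where 37.6% of all genes tested were. Psmb9 was at 8.87, 10.4, 11.3 and 7.2 CPM without and at 14.7, 16.1, 18 and 13 CPM with TGFβ1. Its groups were separate, with a log2 fold change of 0.70 and a standard error of 0.172 (edgeR FDR = 4.27e-07). Psmb8, the counterpart of Psmb5, rose by 0.32 and Psmb10, the counterpart of Psmb7, by 0.36 (edgeR FDR = 4.51e-05 and 8.76e-06). Against 1.2-fold, Psmb8 and Psmb10 did not pass glmTreat (FDR = 0.163 and 0.0654), while Psmb9 did (FDR = 0.000288). Per kilobase of exon, Psmb9 had 2.58 CPM in untreated and 4.21 CPM in treated cells, against 77.9 and 71.4 CPM for Psmb6, the subunit that it replaces.

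**Figure D5:**
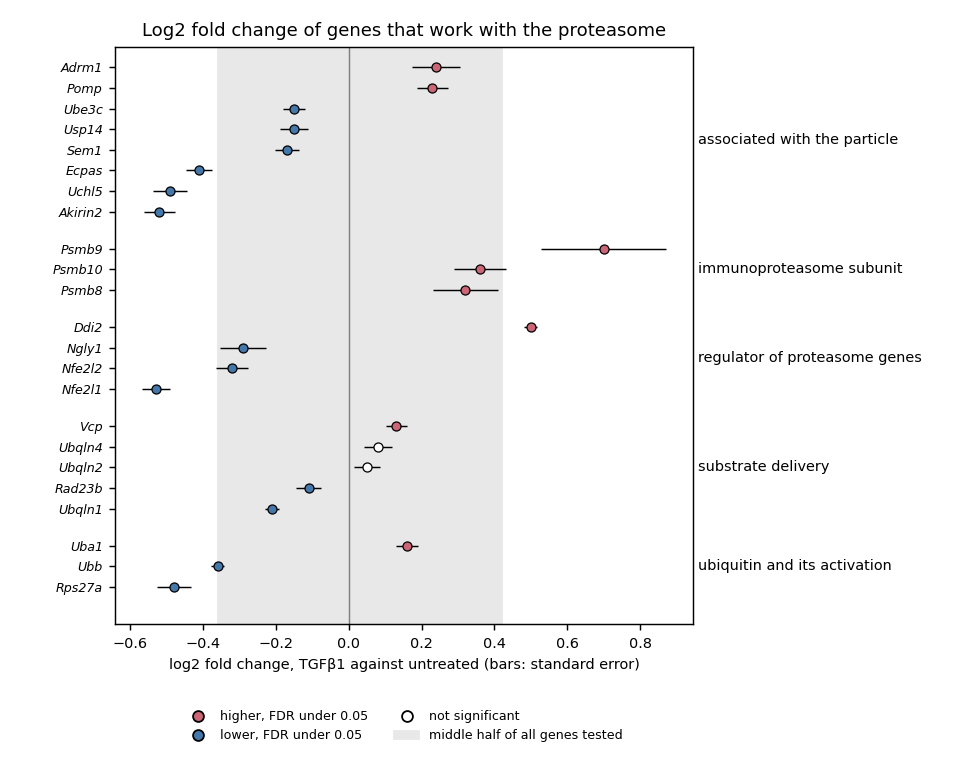
Log2 fold change of 23 genes that work with the proteasome, TGFβ1 against untreated, from edgeR (points), with the standard error of the difference in mean log2 CPM (bars, n = 4 libraries per group). Ddi2 and Psmb9 lie above and Nfe2l1, Akirin2, Uchl5, Rps27a and Ecpas below the grey band, which lies between the quartiles of all genes tested.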

How the data were processed

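The deposited file holds raw counts of reads per gene, which the authors made by mapping 75-base reads, sequenced from one end of stranded mRNA libraries, to GRCm38. The submitters' processing notes list bcl2fastq 2.20.0.422, STAR 2.7.3a and featureCounts 1.5.1. The annotation release and the strand setting are not given in the sources used here. Libraries were grouped by their labels.

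Tests used edgeR 4.0.16 under R 4.3.3: filterByExpr on the groups, TMM, estimateDisp, glmFit and glmLRT, the likelihood ratio test that the paper's methods name, with Benjamini-Hochberg FDRs over 13818 genes and a threshold of 0.05. Only rows of proteasome genes and their partners are printed. Log2 CPM carry a prior count of 2. Alternatives were the quasi-likelihood test, DESeq2 1.42.0, other scalings and filters, an FDR of 0.01, glmTreat at 1.2-fold, a prior count of 2, a replicate block, and each library left out. The pipeline was tested on simulated data.

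Gene models, exon lengths and stretches of 75 bases shared between transcripts come from GENCODE M21 (GRCm38), promoter sequences from RefSeq (GRCm38.p6). The members, role groups and partner list were chosen with earlier results of these data known. Some genes of the partner list are not reported here, and counts over the list leave them out. Any member could be named, and values per library are given for the highest and lowest log2 fold change in each role group, the catalytic subunits, activators, inhibitor and the 6 most abundant uncalled members, and for Psmd4, Psmb9 and Nfe2l1, which were added after their values were seen. Floors of 3 counts cover counting error only. Within groups, pairs of libraries had a chi-square per degree of freedom of 2.37 to 7.84, above sampling noise, and each was counted as 1 sample.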

Additional observations from a re-analysis of the deposited data

Results flagged for a closer look

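Of 86 sets of 4 libraries examined for the tested members, 2 held a library far from the others by Dixon's test, where chance flags about 5% of sets. In both it was untreated replicate 4. Psmd4 was at 93.8 CPM in it and at 102 to 104 CPM in the other untreated libraries, a gap of 0.848 of the range. Psmd9 was at 65.4 CPM against 73.2 to 74.4 CPM, a gap of 0.872 of the range. Both ranges were narrow, 0.15 and 0.185 on the log2 scale.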

How the results depend on the processing

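Of the 27 members called, 24 kept their call and direction in all 8 fits without 1 library, and 6 did so under every alternative, most of the others missing the threshold only against 1.2-fold. With glmTreat at 1.2-fold, 1 member was higher and 5 lower, 2 associated genes higher and 6 lower (8.7% and 26.1%), and 3582 of all genes higher and 3290 lower (25.9% and 23.8%). The median log2 fold change of the members was -0.119 with total counts, -0.073 with upper quartile factors, -0.082 without the filter on low counts and -0.076 to -0.032 with 1 library left out. Total counts made 8 uncalled members significantly lower: Psma6, Psmb1, Psmb4, Psmc3, Psmd5, Psmd8, Psmd11 and Psme3. The calls of Psmd3, Psmd6 and Psmd13 as higher were lost. Small uncalled changes turned sign: Psmb7 to -0.0412, Psmd7 to -0.0652, Psmd12 to -0.00221 and, among the associated genes, Ubqln2 to -0.0156. Psmd7, never called, was also at -0.00249 with DESeq2, -0.0193 with upper quartile factors and -0.0285 without the filter, where Psmb7 was at -0.00409. Without 1 library, Psma5 ranged from -0.0722 to 0.0142, Psmb7 from -0.00598 to 0.0459 and Psmd7 from -0.0153 to 0.0212. The causes were not tested. Same-numbered libraries did not deviate together (correlations -0.193 to -0.0336, and 0 of 4 untreated libraries correlated best with their own number). No pairing by number was seen, although 4 libraries per group are too few to exclude one. With the replicate block 10 members were higher and 16 lower, the call of Psmc5 being lost, as it was with DESeq2 size factors and with a filter of 1 CPM. With those 2 settings Psme1 was called higher (edgeR FDR = 0.0486 and 0.0376). Depth limits Psma8 and Psmb11, at 0 to 2 counts.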
